A study of Mus musculus with 8 samples.

Results

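The genes described are 48 genes of the cell cycle and of DNA replication among the 54532 gene rows of the deposited count table, found by gene symbol, and all 48 passed the expression filter of the tests. They were read as 9 genes of the replication core (Mcm2 to Mcm7, Pcna, Rrm1 and Rrm2), 10 genes of the G1/S step and of origin firing, and 29 mitosis genes. RNA came from macrophages of the mouse peritoneal cavity after thioglycollate broth, an irritant that recruits leukocytes, so every group shares this treatment. The compared groups were Men1 knockout (KO) and wild type (WT), with 3 M_KO libraries (M_KO_5642, M_KO_5645 and M_KO_5944), 3 M_WT libraries (M_WT_5643, M_WT_6255 and M_WT_6258), 1 F_KO library (F_KO_5639) and 1 F_WT library (F_WT_5638). The numbers are those of animals, and values within a group are listed by rising animal number. M and F are letters of the sample titles, kept as written. The type of knockout allele, any Cre driver, the strain and the age are not stated in the labels.

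Cells that copy their DNA load a ring of MCM proteins onto origins, raise the pool of deoxynucleotides through ribonucleotide reductase and thymidylate synthesis, and slide PCNA along the new strand. Cyclin-dependent kinases, Polo and Aurora kinases, spindle motors and the kinetochore then carry the chromosomes through mitosis, and the anaphase-promoting complex ends it by destroying cyclins. Replication genes are textbook targets of E2F factors, and many mitosis genes are controlled through CHR elements and CCAAT boxes. Macrophages are mostly non-dividing, but those of the peritoneal cavity are known to proliferate locally during the resolution of inflammation. Men1 encodes menin, a scaffold of histone methyltransferase complexes that restrains growth of mouse pancreatic islets through CDK inhibitor genes.

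Promoter windows were searched for the letters of elements through which many such genes are known to be regulated. RefSeq promoter sequences (GRCm38.p6, 250 bases before to 50 after the start) matched 41 of the 48 genes. A pair of replication genes with an E2F motif and a pair of mitosis genes with a CHR motif are shown 5′ to 3′, since their levels are given below in every library. They lie at chr7:102441445-102441744, plus strand (Rrm1), chr1:128359656-128359955, minus strand (Mcm6), chr7:135716330-135716629, minus strand (Mki67) and chr11:99024140-99024439, minus strand (Top2a). Capitals mark the E2F motif in Rrm1 and Mcm6, and the CHR motif in Mki67 and Top2a.
Rrm1: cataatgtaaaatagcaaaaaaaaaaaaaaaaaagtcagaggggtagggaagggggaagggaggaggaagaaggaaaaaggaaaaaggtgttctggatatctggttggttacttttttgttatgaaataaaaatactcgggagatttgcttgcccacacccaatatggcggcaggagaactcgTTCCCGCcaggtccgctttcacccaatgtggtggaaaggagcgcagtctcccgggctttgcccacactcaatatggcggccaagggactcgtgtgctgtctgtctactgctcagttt
Mcm6: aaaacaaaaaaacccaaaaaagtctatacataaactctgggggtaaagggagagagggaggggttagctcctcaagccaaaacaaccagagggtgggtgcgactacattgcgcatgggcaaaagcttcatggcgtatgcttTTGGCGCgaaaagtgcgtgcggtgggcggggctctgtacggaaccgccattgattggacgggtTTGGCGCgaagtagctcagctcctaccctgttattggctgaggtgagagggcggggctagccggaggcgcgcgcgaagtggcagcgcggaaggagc
Mki67: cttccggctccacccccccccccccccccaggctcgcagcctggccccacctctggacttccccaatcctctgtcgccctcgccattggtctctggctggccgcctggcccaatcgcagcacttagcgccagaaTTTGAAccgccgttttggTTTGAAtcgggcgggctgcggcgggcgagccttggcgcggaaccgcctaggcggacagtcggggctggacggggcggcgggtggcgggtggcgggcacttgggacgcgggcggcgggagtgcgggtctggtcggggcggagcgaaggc
Top2a: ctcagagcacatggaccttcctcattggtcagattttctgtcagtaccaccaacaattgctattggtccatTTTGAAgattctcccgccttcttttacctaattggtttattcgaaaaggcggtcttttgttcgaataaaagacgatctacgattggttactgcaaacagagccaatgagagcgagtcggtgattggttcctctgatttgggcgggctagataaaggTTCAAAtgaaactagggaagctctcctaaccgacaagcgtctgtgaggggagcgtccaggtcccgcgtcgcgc

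The searched letters were TTCCCGC or TTGGCGC for E2F, TTTGAA or TTTAAA for CHR and CCAAT for the CCAAT box, on both strands. TTGGCGC shares TTGG with ATTGG, the reverse of CCAAT, so that 1 stretch can count for both. E2F letters stood in 5 of 8 replication core, 3 of 8 G1/S and 5 of 25 mitosis promoters, and in 7.79% of the 27025 genes of the RefSeq table. CHR letters stood in 22 of 25 mitosis promoters, in 3 of 8 replication core and 4 of 8 G1/S promoters, and in 30.6% of all genes. At least 1 CCAAT box stood in 8 of 8 replication core, 2 of 8 G1/S and 20 of 25 mitosis promoters, and in 41.1% of all genes. The Mki67 window held 2 CHR matches, at -116 and -98 from the start, 3 CCAAT boxes and 1 E2F match, and the Top2a window 2 CHR matches and 6 CCAAT boxes. A match describes the letters of the window and shows no binding.

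**Figure D1:**
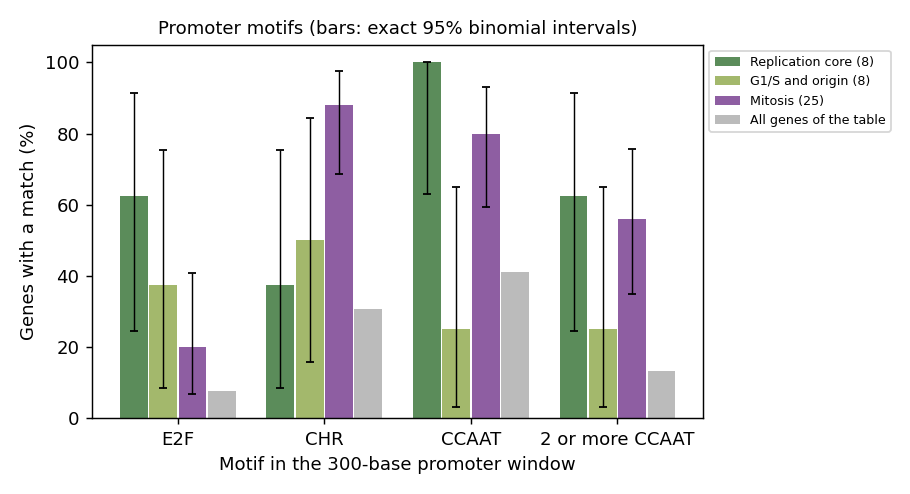
Share of genes (%) whose 300-base promoter window holds each motif, for 8 replication core, 8 G1/S and origin and 25 mitosis genes and for all 27025 genes (grey), with exact Clopper-Pearson 95% intervals. The CHR motif stood in 88.0% of the mitosis genes and 30.6% of all genes.

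Total counts ran from 18206427 to 22853583 per library, and the text gives levels as CPM (reads scaled to library size, with TMM factors). Men1 (ENSMUSG00000024947, chromosome 19, 6334979 to 6340891, GRCm38) was at 8.32, 6.51 and 8.16 CPM in M_KO, against 25.8, 21.4 and 17.1 CPM in M_WT, and 11.8 CPM in F_KO, against 18 CPM in F_WT. All 4 KO libraries lay below all 4 WT libraries, with a log2 fold change in M_KO against M_WT of -1.49 (SE 0.21, edgeR adjusted p = 0.284, DESeq2 adjusted p = 4.45e-06). Each KO library thus still held Men1 transcript, from exons that gene counts cannot tell. The macrophage label was met: the summed level of 10 macrophage markers was 17962 to 20467 CPM in M_KO and 21325 to 28348 CPM in M_WT. Markers of resident large peritoneal macrophages (7 of 7 detected) summed to 3077, 13965 and 11180 CPM in M_KO, against 11380, 8766 and 7043 CPM in M_WT, and to 11615 CPM in F_KO, against 5627 CPM in F_WT. Markers of B cells (10 of 10 detected) summed to 213, 663 and 337 CPM in M_KO, against 447, 145 and 152 CPM in M_WT, and to 725 CPM in F_KO, against 435 CPM in F_WT. T and NK cell markers summed to 0.158 to 1.36 CPM in M_KO and 0.253 to 0.851 CPM in M_WT. Neutrophil markers (9 of 10 detected, Mpo at 0 in all libraries, 8 with a mean under 1 CPM) summed to 11, 4.96 and 10.4 CPM in M_KO, against 9.43, 5.32 and 5.32 CPM in M_WT, and to 17.1 CPM in F_KO, against 4.27 CPM in F_WT. Monocyte markers (5 of 5 detected) summed to 331, 137 and 171 CPM in M_KO, against 178, 122 and 125 CPM in M_WT, and to 135 CPM in F_KO, against 185 CPM in F_WT. Mast cell and basophil markers (8 of 9 detected, Mcpt8 at 0) summed to 1.70, 8.52 and 24.3 CPM in M_KO, against 18, 3.50 and 4.47 CPM in M_WT, and to 6.97 CPM in F_KO, against 3.83 CPM in F_WT. Dendritic cell markers (8 of 8 detected, 4 with a mean under 1 CPM) summed to 16.4, 14.3 and 13 CPM in M_KO, against 24.4, 29.4 and 42.5 CPM in M_WT, and to 19.9 CPM in F_KO, against 23.1 CPM in F_WT. The groups M_KO and M_WT overlapped without Cd209a, at 16.4, 14.2 and 13 CPM in M_KO, against 24.3, 14.9 and 27.1 CPM in M_WT. Cd209a was left out after its values were seen. In bulk RNA, fewer cycling cells and less transcript per cell cannot be told apart.

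The 48 genes were mostly lower in M_KO, but 1 M_WT library was lower still and no gene passed the test. EdgeR fitted 44 of them below M_WT, where 48.5% of all 13646 tested genes were below, and the median log2 fold change was -0.31, against 0.01 for all genes. A gene was called at an adjusted p under 0.05. EdgeR called 0 of the 48 genes (0.022% of all genes) and DESeq2 0 (1.21% of its 15545 genes), and the authors' deposited table calls 0 (0.553% of its 23513 genes). At an unadjusted p under 0.05, edgeR held 1 of the 48, Mki67, where 9.56% of all genes passed. In the same gene alone all M_KO libraries lay below all M_WT libraries (7.14% of all genes, and 16.1% in either direction).

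M_WT_5643 stood apart from the other M_WT libraries, over all genes as well as in these 48. Over all genes its closest library was M_KO_5944 (Spearman's rho 0.984), ahead of M_WT_6255 (0.976) and M_WT_6258 (0.973), while M_WT_6255 and M_WT_6258 had a rho of 0.988 with each other, across genes that are not independent. M_WT_5643 was not alone in this over all genes. M_KO_5642 had a lower rho with its own group, 0.959 with M_KO_5645 and 0.966 with M_KO_5944, and its closest library was F_WT_5638 (0.979). M_KO_5645 was closest to F_KO_5639 (0.976), ahead of M_KO_5944 (0.971). In the 48 genes M_WT_5643 had the lowest M_WT level of all 48 genes (37.8% of all genes) and the lowest of all 8 libraries in 40 (14% of all genes). M_KO_5642 had the highest M_KO level of 47 genes (36.7% of all genes), the exception being Kif23, and F_WT_5638 the highest of all 8 libraries in 39 (9.23%). Summed over the 48 genes, levels were 2096, 1629 and 1517 CPM in M_KO, against 1294, 2654 and 2569 CPM in M_WT, and 1391 CPM in F_KO, against 2949 CPM in F_WT. The 3 libraries with the highest sums were thus WT, and so was the lowest. These sums and those of the resident macrophage markers differed in order. M_KO_5642, highest in M_KO for the 48 genes, was lowest for the marker sum. M_WT_5643, lowest in M_WT for the 48 genes, was highest for the marker sum. As mean log2 CPM, the 7 markers scored 8.85, 8.91 and 8.65 in M_WT, so M_WT_5643 was not highest on that measure. Among the M_WT libraries, Timd4 and Icam2 were lowest in M_WT_5643. Prg4, the most abundant of these markers, was highest there, as were Alox15, Selp and Garnl3. Monocyte markers were highest in M_KO_5642, and mast cell and basophil markers were higher in M_WT_5643 and M_KO_5944 than in the other 6 libraries. The part of the resident macrophage, B cell, dendritic cell, neutrophil, monocyte, and mast cell and basophil markers in the result was not tested.

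Without M_WT_5643, all 48 genes were fitted lower in M_KO (47.1% of all genes), at a median log2 fold change of -0.61. In that fit 26 of 48 had an unadjusted edgeR p under 0.05 (10.5% of all genes). Since M_WT_5643 was the lowest M_WT library in all 48 genes, leaving it out raises the M_WT mean of each. The genes also varied together by library, so the 26 are not independent results. EdgeR still called 0 of the 48 in that fit (smallest adjusted p 0.271, between 0.271 and 0.924 over the 6 fits that left out 1 library), and 21 of all genes (0.149%). Leaving out M_KO_5642 gave 46 lower genes at a median of -0.53, M_KO_5645 42 at -0.23 and M_KO_5944 38 at -0.20. Without M_WT_6255 or M_WT_6258 it was 36 in each, at medians of -0.11 and -0.15. In these 5 fits 0 of the 48 had an unadjusted p under 0.05. A term for animal numbers that begin with 56 was also added to the M fit. M_KO_5642, M_KO_5645 and M_WT_5643 have such numbers, as do both F libraries, which are not in this fit. The term left 33 genes lower, at a median of -0.08 with 0 at an unadjusted p under 0.05. With that term the log2 fold change shrank over 1.5 times or turned sign in 39 of the 48 genes, for example to -0.10 for Mcm6, -0.10 for Ccnb1 and -0.15 for Kif11, while Mki67 was at -0.27.

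**Figure D2:**
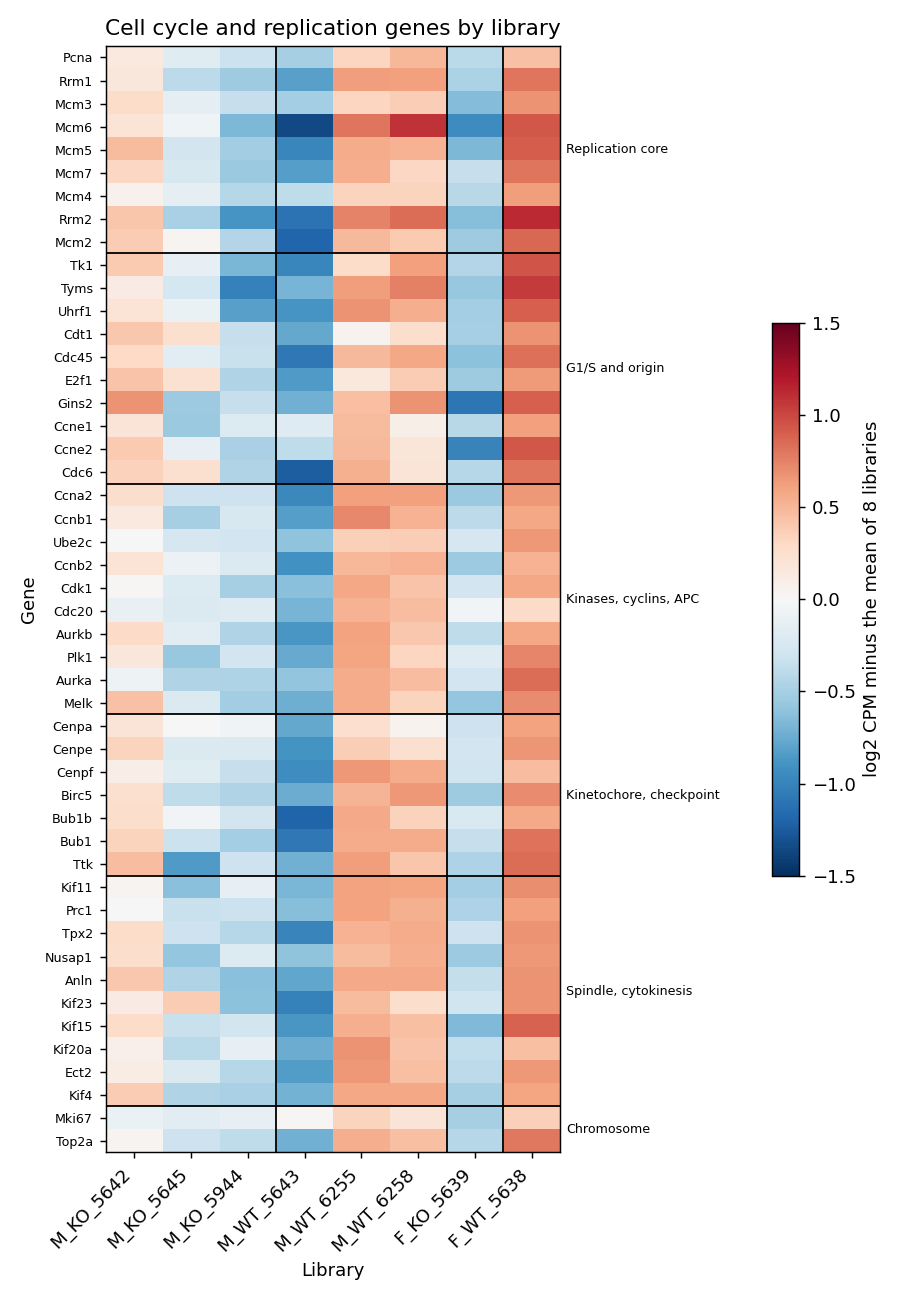
Level of each of the 48 genes (down the page, by role) in each of the 8 libraries (across), as log2 CPM minus the gene's mean over the 8 libraries, blue below and red above. The column of M_WT_5643 is the bluest, lowest of all 8 libraries in 40 genes, while F_WT_5638 is highest in 39.

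The replication core lay lower in M_KO in 9 of 9 genes, at a median log2 fold change of -0.28 and 0 calls (smallest edgeR adjusted p 0.702). Pcna, the sliding clamp of DNA polymerases (ENSMUSG00000027342, chromosome 2, 132249162 to 132253314), was at 138, 109.8 and 99.2 CPM in M_KO, against 88.1, 155 and 175 CPM in M_WT, and 93.5 CPM in F_KO, against 168 CPM in F_WT. M_WT_5643 was the lowest of these libraries and the groups overlapped (116 ± 19.9 CPM in M_KO and 139 ± 45.5 CPM in M_WT, SD, n = 3 each). Its fitted difference did not pass the test (log2 fold change -0.28 with an SE of 0.27, edgeR adjusted p = 0.766). Rrm1, the large subunit of ribonucleotide reductase (ENSMUSG00000030978, chromosome 7, 102441695 to 102469771), was at 66.6, 45 and 41 CPM in M_KO, against 33.7, 91.3 and 90.3 CPM in M_WT, and 42.8 CPM in F_KO, against 103 CPM in F_WT. The M_KO libraries lay between M_WT_5643 and the other M_WT libraries (log2 fold change -0.50 with an SE of 0.40, edgeR adjusted p = 0.702). Rrm2, the regulatory subunit whose protein appears in S phase, was at 36.9, 19.8 and 15 CPM in M_KO, against 12.8, 46.6 and 49.6 CPM in M_WT, and 17.8 CPM in F_KO, against 60.2 CPM in F_WT. Its M_KO libraries again lay above M_WT_5643 and below the other WT libraries (log2 fold change -0.60 with an SE of 0.55, edgeR adjusted p = 0.742).

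Mcm6, a subunit of the replicative helicase (ENSMUSG00000026355, chromosome 1, 128331590 to 128359664), spread most over the libraries, at 47.4, 39.5 and 25.9 CPM in M_KO, against 16.1, 72.1 and 87.1 CPM in M_WT, and 21.5 CPM in F_KO, against 78.4 CPM in F_WT. Its highest level was 5.41 times its lowest, both in M_WT, and the log2 fold change was -0.64 (SE 0.57, edgeR adjusted p = 0.738). The other helicase subunits had log2 fold changes of -0.29 (Mcm4), -0.24 (Mcm7), -0.23 (Mcm5), -0.17 (Mcm3) and -0.05 (Mcm2). Over all 8 libraries Mcm2 ran from 10.5 to 43.6 CPM and Mcm3 from 37.1 to 92.3 CPM. Per gene length, in M_KO, Mcm3 had 14.8 ± 3.28 FPKM and Mcm2 3.48 ± 0.951 FPKM (SD, n = 3).

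Among the 10 G1/S and origin genes, 7 were fitted lower and 3 higher in M_KO, at a median log2 fold change of -0.20 and 0 calls. Tyms, thymidylate synthase (ENSMUSG00000025747, chromosome 5, 30058202 to 30073617), was at 22, 16.8 and 10 CPM in M_KO, against 12.5, 31.2 and 34.1 CPM in M_WT, and 13.7 CPM in F_KO, against 41.7 CPM in F_WT. It had the lowest fold change of the 48 genes (log2 fold change -0.67 with an SE of 0.43, edgeR adjusted p = 0.638), though M_KO and M_WT overlapped. Tk1, the S phase thymidine kinase, was at 28.6, 20 and 13.5 CPM in M_KO, against 11.1, 26.2 and 33.3 CPM in M_WT, and 16.1 CPM in F_KO, against 41.7 CPM in F_WT. Its groups overlapped as well (log2 fold change -0.18 with an SE of 0.44, edgeR adjusted p = 0.912).

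Cdt1, which loads the helicase onto origins, was at 19.7, 17.6 and 11.7 CPM in M_KO, against 8.74, 15.5 and 17.9 CPM in M_WT, and 10.5 CPM in F_KO, against 23.7 CPM in F_WT. Only M_WT_5643 among the M_WT libraries lay below all M_KO libraries, and the fold change was the highest of the 48 genes (log2 fold change 0.22 with an SE of 0.31, edgeR adjusted p = 0.852). E2f1, the activating transcription factor of the G1/S step, was at 14, 12.1 and 7.54 CPM in M_KO, against 5.73, 11.6 and 13.5 CPM in M_WT, and 7.17 CPM in F_KO, against 16.1 CPM in F_WT. It overlapped in the same way (log2 fold change 0.13 with an SE of 0.37, edgeR adjusted p = 0.929), and without M_WT_5643 the log2 fold changes of Cdt1 and E2f1 were -0.03 and -0.16. Cdc6, the partner of Cdt1 in helicase loading, was the third with a higher fitted value (0.08, SE 0.47) and the least abundant of the 48 genes, at 1.48 to 6.08 CPM. The remaining log2 fold changes were -0.44 for Uhrf1, which guides maintenance DNA methylation, -0.31 and -0.16 for the cyclin E genes Ccne1 and Ccne2, -0.22 for Cdc45 and -0.21 for Gins2, both parts of the active helicase.

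The mitotic kinases, cyclins and genes of the anaphase-promoting complex were lower in M_KO in 10 of 10, at a median log2 fold change of -0.35 and 0 calls. Ccna2, cyclin A2 of S phase and mitotic entry (ENSMUSG00000027715, chromosome 3, 36564865 to 36572150), was at 50.4, 33.8 and 33.9 CPM in M_KO, against 21.5, 63.9 and 64.2 CPM in M_WT, and 28.4 CPM in F_KO, against 65.6 CPM in F_WT. M_WT_5643 was below every other library (log2 fold change -0.34 with an SE of 0.42, edgeR adjusted p = 0.824). Ccnb1, cyclin B1 of the mitotic CDK (ENSMUSG00000041431, chromosome 13, 100778650 to 100786570), was at 46.4, 29.7 and 35.5 CPM in M_KO, against 23.7, 69 and 60.5 CPM in M_WT, and 31.9 CPM in F_KO, against 62.8 CPM in F_WT. The M_KO libraries lay between M_WT_5643 and the other M_WT libraries (log2 fold change -0.46 with an SE of 0.39, edgeR adjusted p = 0.724). The lowest value of the list was that of Aurka, the spindle pole kinase (-0.55, SE 0.31). Others were -0.43 for Cdk1, the mitotic CDK itself, -0.37 for Cdc20, an activator of the anaphase-promoting complex, -0.35 for the Polo kinase Plk1, -0.28 for Ube2c, a ubiquitin-conjugating enzyme of that complex, -0.26 for Aurkb of the chromosomal passenger complex, -0.20 for Ccnb2, cyclin B2, and -0.20 for the kinase Melk.

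Of 7 kinetochore and checkpoint genes, 6 were lower and Cenpa was higher in M_KO (Cenpe also turned higher, by 0.0079, under upper-quartile scaling), at a median log2 fold change of -0.31 and 0 calls. Cenpa, the histone H3 variant that marks centromeres (ENSMUSG00000029177, chromosome 5, 30666777 to 30674830), was at 49.2, 43.1 and 41.5 CPM in M_KO, against 25.3, 51.2 and 44.4 CPM in M_WT, and 34.7 CPM in F_KO, against 65.1 CPM in F_WT. The groups overlapped (log2 fold change 0.14 with an SE of 0.26, edgeR adjusted p = 0.886), and without M_WT_5643 the log2 fold change was -0.10. Cenpe, a kinetochore motor, was at 40.4, 27.6 and 27.7 CPM in M_KO, against 17.3, 41.5 and 37.7 CPM in M_WT, and 26.4 CPM in F_KO, against 50.9 CPM in F_WT. Its means were nearly equal (31.9 ± 7.35 CPM in M_KO and 32.2 ± 13 CPM in M_WT, SD, n = 3 each). The sign of the fitted difference (log2 fold change -0.02 with an SE of 0.34, edgeR adjusted p = 0.993) turned under other settings. Birc5, which encodes survivin, had a log2 fold change of -0.42, the kinetochore protein Cenpf -0.39, and the checkpoint proteins Ttk -0.34, Bub1 -0.31 and Bub1b -0.10.

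All 10 spindle and cytokinesis genes were lower in M_KO, at a median log2 fold change of -0.38 and 0 calls. Kif11, the motor that pushes spindle poles apart (ENSMUSG00000012443, chromosome 19, 37376403 to 37421859), was at 45, 28.2 and 40.1 CPM in M_KO, against 27.2, 66.2 and 65.5 CPM in M_WT, and 30.7 CPM in F_KO, against 70.8 CPM in F_WT. Prc1, which bundles microtubules of the central spindle (ENSMUSG00000038943, chromosome 7, 80294450 to 80316259), was at 40.6, 31.9 and 32.1 CPM in M_KO, against 26, 61.2 and 58.1 CPM in M_WT, and 29.1 CPM in F_KO, against 61.8 CPM in F_WT. In both genes M_WT_5643 lay below all M_KO libraries and the other M_WT libraries above them (log2 fold changes -0.49, SE 0.36, and -0.48, SE 0.32, edgeR adjusted p = 0.682 and 0.654). The remaining values ran from -0.40 for Anln, a scaffold of the contractile ring, to -0.02 for Kif23, a motor of the central spindle. Between them lay the cytokinesis regulator Ect2 (-0.38), the motors Kif4 (-0.39), Kif20a (-0.37) and Kif15 (-0.26), and the microtubule proteins Nusap1 (-0.36) and Tpx2 (-0.31).

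Mki67 was the 1 gene whose groups did not overlap. Mki67, which encodes the proliferation marker Ki-67, a surfactant of mitotic chromosomes (ENSMUSG00000031004, chromosome 7, 135689784 to 135716361), was at 380.4, 363 and 373 CPM in M_KO, against 412, 513 and 464 CPM in M_WT, and 289 CPM in F_KO, against 521 CPM in F_WT. All 3 M_KO libraries lay below all 3 M_WT libraries, M_WT_5643 included, and F_KO below F_WT. The means were 372 ± 8.88 CPM in M_KO and 463 ± 50.5 CPM in M_WT (SD, n = 3 each). The fitted log2 fold change was -0.32 (SE 0.13), at an unadjusted edgeR p of 0.0466, an edgeR adjusted p of 0.515, a DESeq2 adjusted p of 0.464 and, in the authors' deposited table, an adjusted p of 1. Two-sided, the exact permutation test over these 6 libraries gave p = 0.1, which is the smallest that it can give. Across the 8 libraries its level varied 1.80-fold, the narrowest range of the 48 genes. Top2a, the topoisomerase that untangles chromosomes (ENSMUSG00000020914, chromosome 11, 98992943 to 99024189), was at 159.6, 124 and 119 CPM in M_KO, against 94.1, 225 and 211 CPM in M_WT, and 115 CPM in F_KO, against 268 CPM in F_WT. It followed the common order, with M_WT_5643 below all M_KO libraries (log2 fold change -0.40 with an SE of 0.33, edgeR adjusted p = 0.712).

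**Figure D3:**
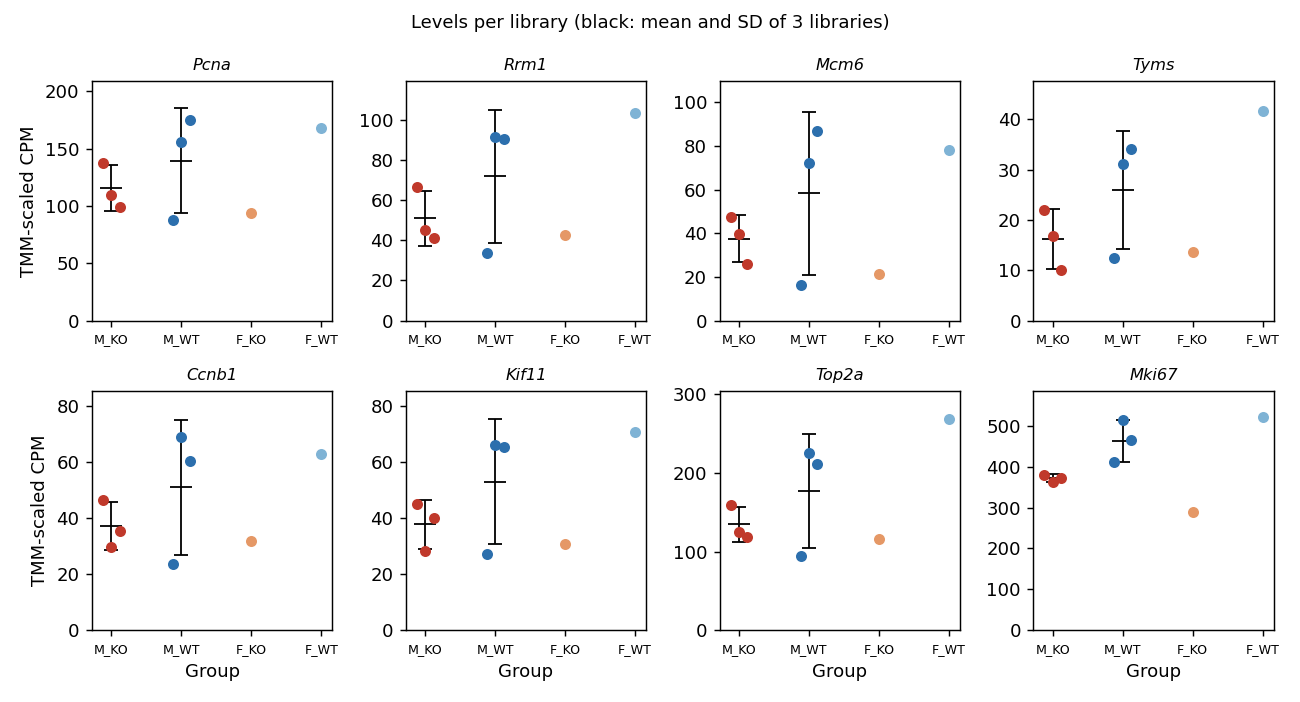
CPM of 8 genes in each library, by group, with the mean and SD of the 3 M_KO and 3 M_WT libraries in black. In Mki67 the M_KO libraries, at 363 to 380.4 CPM, lie below the M_WT libraries, at 412 to 513 CPM, while in the other panels they overlap.

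Levels per gene length put Pcna and Mki67 on top of the 48 genes in both groups. Pcna had 47.6 ± 8.10 FPKM in M_KO and 57.9 ± 18.9 FPKM in M_WT, and Mki67 36.6 ± 1.05 FPKM in M_KO and 45.9 ± 4.74 FPKM in M_WT (SD, n = 3 each). Ccnb2 came next, at 21.7 ± 3.26 FPKM in M_KO and 25.1 ± 11.4 FPKM in M_WT. Cdc6 was the lowest, at 0.701 ± 0.189 FPKM in M_KO and 0.669 ± 0.347 FPKM in M_WT.

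Each library was also scored by the mean log2 CPM of a class, without a test since the genes were chosen with results of these data known. The replication core scored 5.80, 5.32 and 5.01 in M_KO, against 4.68, 6.06 and 6.08 in M_WT, and 4.97 in F_KO, against 6.32 in F_WT. Class means were 5.38 ± 0.40 in M_KO and 5.60 ± 0.80 in M_WT (SD, n = 3 each), a difference of -0.23. The G1/S and origin genes scored 3.70, 3.24 and 2.85 in M_KO, against 2.59, 3.77 and 3.78 in M_WT, and 2.75 in F_KO, against 4.17 in F_WT. Class means were 3.26 ± 0.43 in M_KO and 3.38 ± 0.69 in M_WT, a difference of -0.12. The mitosis genes scored 5.07, 4.59 and 4.56 in M_KO, against 4.12, 5.43 and 5.33 in M_WT, and 4.50 in F_KO, against 5.53 in F_WT. Class means were 4.74 ± 0.29 in M_KO and 4.96 ± 0.73 in M_WT, a difference of -0.22. In all 3 classes the differences were smaller than the SD of either group, M_WT_5643 was the lowest of the 8 libraries and F_WT_5638 the highest.

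The differences hung on single libraries. Without M_WT_5643 they were -0.69, -0.51 and -0.64 for the replication core, the G1/S genes and the mitosis genes. Without M_WT_6255 they were -0.0027, 0.08 and 0.01, and without M_WT_6258 they were 0.0076, 0.08 and -0.04. Without M_KO_5944 they were -0.04, 0.09 and -0.13, and without M_KO_5642 they were -0.44, -0.34 and -0.39. The replication core minus the mitosis score was 0.73, 0.73 and 0.45 in M_KO, against 0.56, 0.63 and 0.74 in M_WT, and 0.47 in F_KO, against 0.79 in F_WT. These differences between classes overlapped in M_KO and M_WT.

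**Figure D4:**
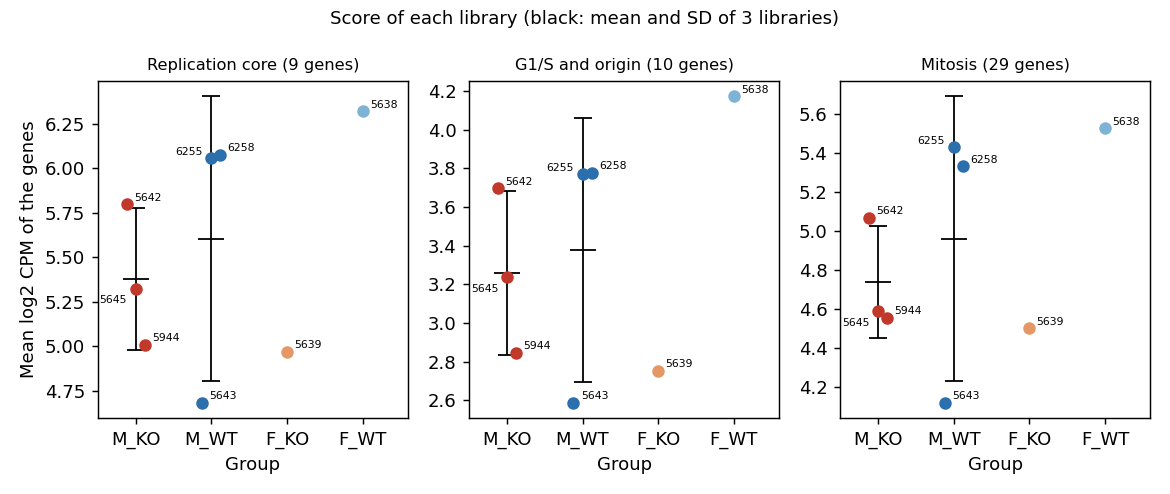
Mean log2 CPM of the replication core, the G1/S and origin genes and the mitosis genes in each library (points with animal numbers), by group, with the mean and SD of the 3 M_KO and 3 M_WT libraries in black. M_WT_5643 is the lowest point and F_WT_5638 the highest in every panel.

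The F pair has 1 library on each side and no replicate check. All 48 genes were lower in F_KO than in F_WT (49.2% of all genes), 33 of them by at least 1 log2 unit (5.37% of all genes), and the median log2 difference was -1.15, against 0.01 for all genes. The differences ran from -1.96 (Gins2) and -1.90 (Ccne2) to -0.33 (Cdc20). By class the median was -1.31 for the replication core, -1.39 for the G1/S genes and -1.04 for the mitosis genes. Mcm6 in F_KO was at 0.274 of its F_WT level (95% exact Clopper-Pearson interval 0.247 to 0.304) and Mki67 at 0.554 (0.537 to 0.572). These intervals cover counting error only. The interaction of genotype and letter was called for 0 of the 48 genes (0.0218% of 13751 genes, smallest edgeR adjusted p 0.965), with 1 gene, Ccne2, at an unadjusted p under 0.05 (4.36% of all genes).

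With the letter M or F as a term, the fit to the 8 libraries put all 48 genes lower in KO (47.7% of all genes), at a median log2 fold change of -0.50, against 0.01 for all genes. EdgeR called 0 of the 48 (0.00727% of all genes) and DESeq2 0 (0.874% of its 15099 genes). At an unadjusted p under 0.05 edgeR held 3 of the 48, namely Mki67, Aurka and Tyms (9.48% of all genes). All KO libraries lay below all WT libraries in Mki67 alone (2.33% of all genes), where the log2 fold change was -0.45 (edgeR adjusted p = 0.484). Without F_KO or without F_WT, 44 of the 48 genes were lower. The letter term then takes up the F library that is left. Such a fit is in effect M_KO against M_WT again and is no separate check.

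**Figure D5:**
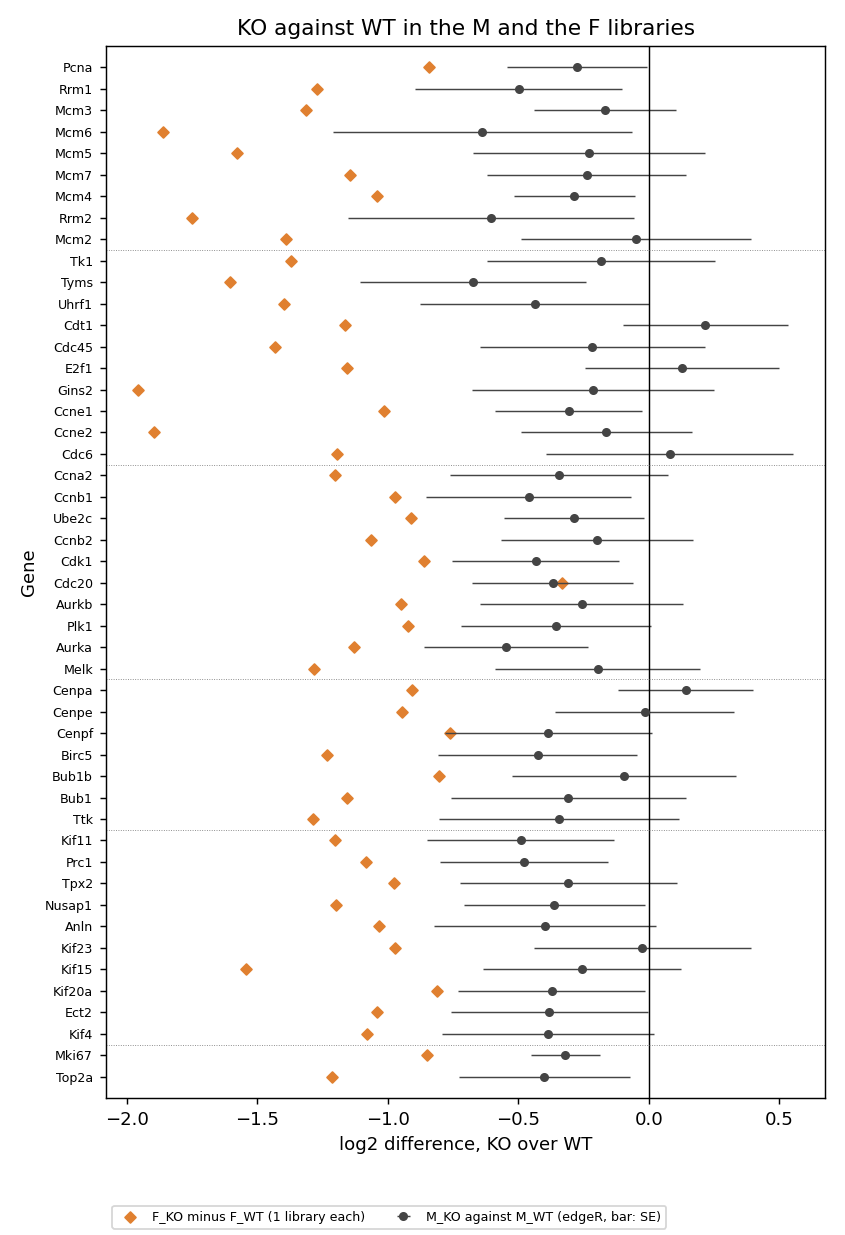
Log2 difference of KO over WT for each of the 48 genes (down the page), in M_KO against M_WT (circles, edgeR, bars of 1 SE) and in F_KO minus F_WT (diamonds, 1 library each). The M values lie between -0.67 (Tyms) and 0.22 (Cdt1), with 44 of 48 below 0, and the F values between -1.96 (Gins2) and -0.33 (Cdc20).

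Other cell cycle genes were listed as context, and edgeR called 0 of them in any list. At an unadjusted p under 0.05, where 9.56% of all genes passed, edgeR held 4 of the 11 tested growth factor genes. It held 2 of the 7 G1 cyclin and CDK genes and 1 of the 7 CDK inhibitor genes. In the lists of further mitosis, further replication and upstream regulator genes it held 0. DESeq2 called 2 genes, both in the growth factor list (1.21% of its 15545 genes were called). Of 40 further mitosis genes, 35 were lower in M_KO (median log2 fold change -0.23) and 40 lower in F_KO. Incenp, the scaffold of the chromosomal passenger complex, was at 99.5, 60.7 and 57.3 CPM in M_KO, against 42, 126 and 97.6 CPM in M_WT, and 62.5 CPM in F_KO, against 115 CPM in F_WT. Smc4, a condensin subunit, was at 89.1, 68.4 and 66.1 CPM in M_KO, against 75.4, 123 and 133 CPM in M_WT, and 61.5 CPM in F_KO, against 127 CPM in F_WT (log2 fold change -0.57, SE 0.24). Both had M_WT_5643 as the lowest M_WT library and overlapped. Of 37 further replication genes, 27 were lower in M_KO (median -0.11) and 35 lower in F_KO. Lig1, the ligase that joins Okazaki fragments, was at 55.8, 32 and 30.3 CPM in M_KO, against 21.8, 58.9 and 57.3 CPM in M_WT, and 26.5 CPM in F_KO, against 73.7 CPM in F_WT. Rpa1, which coats single-stranded DNA, was at 38.4, 37.8 and 33.6 CPM in M_KO, against 30.8, 62.6 and 52.9 CPM in M_WT, and 26.3 CPM in F_KO, against 70.1 CPM in F_WT. Their groups overlapped too.

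Of 19 pocket protein, E2F and DREAM complex genes, 10 were lower and 9 higher in M_KO (median -0.02). Rbbp4, a histone-binding subunit of DREAM, was at 131, 116 and 104 CPM in M_KO, against 97.7, 134 and 128 CPM in M_WT, and 118 CPM in F_KO, against 139 CPM in F_WT. Tfdp1, a partner of E2F factors, was at 53.2, 55.7 and 46 CPM in M_KO, against 46, 66.8 and 66.4 CPM in M_WT, and 54 CPM in F_KO, against 70.8 CPM in F_WT. Both overlapped between M_KO and M_WT (log2 fold change of Tfdp1 -0.21, SE 0.18). Of 7 CDK inhibitor genes, 5 were lower and 2 higher in M_KO (median -0.07). Cdkn1a, which encodes p21, was at 219, 172 and 189 CPM in M_KO, against 242, 248 and 274 CPM in M_WT, and 198 CPM in F_KO, against 232 CPM in F_WT. All KO libraries lay below all WT libraries, though without a call (log2 fold change -0.40 with an SE of 0.14, edgeR adjusted p = 0.474). Cdkn1b, which encodes p27 and is a known menin target in mouse islets, was at 69.5, 90.3 and 75.9 CPM in M_KO, against 93.3, 80.3 and 69.1 CPM in M_WT, and 81.5 CPM in F_KO, against 68.4 CPM in F_WT. Cdkn2c, the other such target, was at 32, 24.4 and 18.7 CPM in M_KO, against 15.9, 33.1 and 37.5 CPM in M_WT, and 23.9 CPM in F_KO, against 38.9 CPM in F_WT, and was chosen for this role after its values were seen. Both overlapped between M_KO and M_WT (-0.05, SE 0.16, and -0.21, SE 0.35).

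Of 7 genes of G1 cyclins and their kinases, 5 were lower in M_KO and 7 in F_KO. Cdk6, the partner of D-type cyclins, was at 73.3, 76.2 and 75.6 CPM in M_KO, against 104, 86.6 and 167 CPM in M_WT, and 83.8 CPM in F_KO, against 137 CPM in F_WT. All M_KO libraries lay below all M_WT libraries (log2 fold change -0.67 with an SE of 0.24, edgeR adjusted p = 0.478). Ccnd2, cyclin D2, was at 33.6, 38 and 101 CPM in M_KO, against 173, 76.8 and 169 CPM in M_WT, and 78.5 CPM in F_KO, against 85.9 CPM in F_WT. M_KO_5944 was above M_WT_6255, so the groups overlapped (log2 fold change -1.29 with an SE of 0.50, edgeR adjusted p = 0.497).

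Among 12 growth factor and macrophage proliferation genes, 11 were tested, 5 of them lower and 6 higher in M_KO. DESeq2 called 2 (1.21% of its 15545 genes). Csf2, the growth factor GM-CSF, was at 0.394, 0.981 and 2.04 CPM in M_KO, against 14.6, 5.93 and 14 CPM in M_WT, and 3.22 CPM in F_KO, against 6.46 CPM in F_WT. It fell in M_KO by DESeq2 (adjusted p = 5.71e-06) and in the authors' deposited table (adjusted p = 1.43e-05), but not by edgeR (log2 fold change -3.37 with an SE of 0.63, edgeR adjusted p = 0.354). Its DESeq2 log2 fold change was -3.37, and -4.11 without M_KO_5944, and the call held without each of the 6 libraries. Csf1r, the receptor of the main macrophage growth factor, was at 2072, 2054 and 1826 CPM in M_KO, against 1480.0, 1556 and 1234 CPM in M_WT, and 1950.3 CPM in F_KO, against 1481 CPM in F_WT. Its M_KO libraries lay above all M_WT libraries (log2 fold change 0.48 with an SE of 0.16, edgeR adjusted p = 0.474). Csf2rb, the shared beta chain of the GM-CSF receptor, was at 526, 825 and 639.5 CPM in M_KO, against 819, 692 and 489 CPM in M_WT, and 1174 CPM in F_KO, against 622 CPM in F_WT, and M_KO and M_WT overlapped (log2 fold change -0.01, SE 0.25).

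Exons of 14 of the 48 genes overlap an exon of another gene, mostly on the opposite strand, and the strand setting of the counting is not stated in the labels, so their counts are uncertain. They include Ccna2, Prc1, Tk1, Cdc20 and Mcm7. Of the 34 genes without such an overlap, 30 were lower in M_KO. Pcna has a copy annotated as a pseudogene, Pcna-ps2, at 0.671, 0.362 and 0.567 CPM in M_KO, against 14.1, 1.37 and 0.745 CPM in M_WT, and at 11.5 CPM in F_KO, against 20.8 CPM in F_WT. With both summed, the log2 fold change of Pcna was -0.32 in place of -0.28.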

How the data were processed

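A NEBNext Ultra kit was used for the libraries, per the labels. Among tools, HISAT2 (2.0.5), DESeq2 (1.16.1) and featureCounts (1.5.0-p3), and among builds, mm10 and GRCm38, are named, per the submitters' processing notes. Reads per gene were deposited as raw counts by the authors, and the deposited FPKM table holds FPKM values made by the authors. In the authors' deposited comparison, the per-library signal is a count scaled by the authors, beside their log2 fold changes and p-values. No value column was without a sample (0 columns).

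Groups came from the titles. The members and gene lists were chosen with earlier results of these data known. The main test was the quasi-likelihood test of edgeR (4.0.16, R 4.3.3) on these counts, scaled by TMM and filtered by edgeR's default, with Benjamini-Hochberg adjustment over all genes and a threshold of 0.05. The M comparison had 13646 genes, 4 residual degrees of freedom and a biological coefficient of variation of 0.30. Log2 CPM used a prior count of 2. DESeq2 1.42.0 and limma 3.58.1 were alternatives, and the tests were tried on simulated counts. A count of 0 allows up to 3 counts, 0.118 to 0.170 CPM by library, which covers counting error only. Animal numbers in the titles are all different, and p-values measure the spread between these libraries. Values in every library are given for the 2 most abundant genes of each list, any called gene, and the 3 largest rises and falls. The values of 1 called gene of the growth factor list are not reported here. Promoter motifs count a gene once if any of its RefSeq windows holds the letters.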

Additional observations from a re-analysis of the deposited data

How the results depend on the processing

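In M_KO against M_WT, 0 of the 48 genes were called under each alternative run (DESeq2, limma voom, RLE or upper-quartile scaling, no filter, at least 1 CPM in at least 3 libraries, all 8 libraries in 4 groups, limma on log2(FPKM + 1), a term for animal numbers that begin with 56, leaving out each library). The number of lower genes was 33 with the term for animal numbers, 40 with voom and with FPKM, 43 with upper-quartile scaling, and 36 to 48 when 1 library was left out. The calls among all genes were 3, but 188 with DESeq2, 16 without a filter, and 0 (without M_WT_6255) to 21 (without M_WT_5643) when 1 library was left out. Over all 8 libraries they were 1, but 132 with DESeq2, 7 without a filter, and 0 to 3 when 1 library was left out. With the term for animal numbers the log2 fold change shrank over 1.5 times or turned sign in 11 of the 16 genes of the naming rule, and was 0.021 for Ccna2, -0.21 for Rrm1, -0.27 for Rrm2, -0.14 for Top2a and -0.0023 for Tk1. That of Cenpe was 0.077 with voom, 0.0079 with upper-quartile scaling, 0.22 with the term for animal numbers and 0.023 with FPKM. With 1 library left out it ran from -0.31 to 0.21 for Cenpe, -0.52 to 0.15 for Tk1, -0.10 to 0.35 for Cenpa, -0.027 to 0.43 for Cdt1 and -0.16 to 0.37 for E2f1. The cause was not tested. The G1/S score difference was 0.07 as a median over its genes. No paired analysis was possible because the animal numbers differ between the groups. The fits with Pcna and Pcna-ps2 summed, with members whose exons overlap no other gene, without 1 library over all 8, and the DESeq2 fits without 1 library were chosen after seeing the data. So was the dendritic cell marker sum without Cd209a. With 3 libraries a group, the number of animals limits the precision of each comparison.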
